A study of Homo sapiens with 12 samples.

Results

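The kinases, cyclins and CDC25 phosphatases that drive mitosis, together with the anaphase-promoting complex (APC/C) and its ubiquitin-conjugating enzymes, were followed as a group of 40 genes out of the 60648 in the count table. Members were chosen by name and function, with earlier results of these data known, and each matched 1 gene of the table by its Ensembl ID. By what is known of their transcripts over the cell cycle, 20 were classed as G2/M-periodic, 4 as G1/S-periodic (CDC25A, WEE1, PKMYT1 and FBXO5) and 15 as constant (FZR1 and the 14 APC/C subunits). MASTL was left without a class.

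The RNA came from HCT116, a human colon carcinoma line grown in DMEM with fetal bovine serum, in 4 groups of 3 poly-A selected libraries. WT initial and WT final were MTHFD2 wild-type cells, and KO initial and KO final were cells in which MTHFD2, a folate-cycle enzyme, had been knocked out with CRISPR-Cas9. Initial RNA was taken directly after the knock-out had been made, and final RNA after 2 months of further culture. The knock-out was 1 isolated clone, so the loss of MTHFD2 and the properties of that clone cannot be told apart. The series describes the libraries as biological replicates, but nothing says that they came from separate cultures, so p-values measure the spread between these libraries.

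Entry into mitosis depends on CDK1 bound to cyclin A or cyclin B. The WEE1 and PKMYT1 kinases hold CDK1 inactive by phosphorylation and the CDC25 phosphatases release it, while PLK1 and the Aurora kinases build the spindle and correct chromosome attachment. The APC/C, directed first by CDC20 and later by CDH1 (encoded by FZR1), then marks cyclin B and other substrates for destruction. Many of these genes are transcribed mainly in late S, G2 and M phase under the MuvB, B-MYB and FOXM1 proteins, whereas the APC/C core subunits are made throughout the cycle. A bulk RNA sample therefore reports both transcript per cell and how many cells are in each phase, and here fewer cells in G2/M and less RNA per cell cannot be told apart.

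Library totals lay between 38597809 and 40017561 counts, libraries of a group correlated at 0.989 to 0.996, and all 40 members were among the 18289 genes that passed the filter on low counts. MTHFD2 itself was 1.59 (log2) lower in the knock-out than in the wild type initially and 1.38 lower finally (SE 0.11 for each), with adjusted p = 3e-08 and 1.09e-07 in edgeR's quasi-likelihood test. All 6 colon epithelial markers had counts in every library, and their summed level ran from 2620 to 3230 CPM (TMM-scaled counts relative to the library total) in WT initial, 3060 to 3200 in WT final, 2470 to 2700 in KO initial and 2210 to 2590 in KO final. Of these markers, CDH1 (E-cadherin) and EPCAM were called lower in the knock-out at both harvests, and KRT18 and KRT19 at the final harvest. Of 5 fibroblast markers, 3 had counts in every library and DCN and LUM were at 0 throughout, with sums of 56.7 to 69.9, 60.2 to 78.7, 37.5 to 48.2 and 43.4 to 59.3 CPM in the same order. COL1A1 was called lower in the knock-out at both harvests and COL3A1 at the initial one, while PDGFRB was called higher at both. Of 4 leukocyte markers 2 had counts in every library and CD3E was at 0 throughout, with sums of 0.415 to 0.667, 0.75 to 0.814, 2 to 2.25 and 1.28 to 1.63 CPM, and LYZ was called higher in the knock-out at both harvests. Of 3 endothelial markers 2 had counts in every library, the sums lay between 1.22 and 2.22 CPM, and none was called. The part of these markers' differences in the members' differences was not tested.

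Every member had counts in all 12 libraries, at levels that ranged widely. Per length of gene model, the leading members were CDC20 at a mean of 128 RPKM (counts per kilobase of gene model, scaled to library size), CCNB1 at 121, TPX2 at 106 and CDC25B at 93.7. CDK1 itself stood at 37.7 RPKM. The lowest were 3 APC/C subunits, ANAPC10 at 1.69, ANAPC15 at 1.80 and CDC26 at 2.01 RPKM. Each of these 3 overlaps another gene of the table, and how reads in such overlaps were counted is not given.

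Between genotypes the module differed little in size, and the members called were mostly higher in the knock-out. Initially 5 of 40 members passed an adjusted p of 0.05 in edgeR's quasi-likelihood test: CDC25A, CDC23, UBE2S and CDC20 were higher and CDC16 was lower. Over all genes tested the share called was 19.9% (8.55% higher and 11.3% lower), so in this fit the members' count lay below the background. The 4 of 40 called higher lay near the share called higher. The members' count lay above the share of all genes without WT initial replicate 2 (13 of 40 against 24.6%). It did so too with upper-quartile scaling (9 of 40 against 19.8%). At the final harvest 1 of 40 was called, CDC25C, which was higher, against 18.5% of all genes (8.38% higher and 10.2% lower). In the average of both harvests 9 of 40 were called and all 9 were higher, against 30.1% of all genes called in either direction, 14% higher and 16.1% lower. The 9 members thus lay below the share called in either direction and above the share called higher. These 9 were CDC25A, CDC23, CDC25C, CDCA8, AURKA, FBXO5, CDK1, PLK1 and BIRC5. The average uses the same libraries as the single-harvest comparisons and is not separate evidence. The ranges of the genotypes did not overlap for 8 of 40 members at the initial harvest (CDC25A, CDC25B, CDCA8, CDC20, UBE2S, ANAPC2, CDC16 and CDC23), against 35.5% of all genes. At the final harvest they did not for 8 of 40 (CDC25A, CDC25C, CDK1, CDCA8, FOXM1, FBXO5, ANAPC7 and ANAPC11), against 33.1%.

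Periodic and constant genes were set side by side, as a description without a test. The median log2 difference, knock-out minus wild type, of the 20 G2/M-periodic genes was 0.15 initially and 0.10 at the final harvest, and that of the 15 constant genes was 0.06 and 0.02. The median over all genes tested was 0.00 at both harvests. Of the G2/M-periodic genes, 18 of 20 lay above 0 at the initial harvest and 16 of 20 at the final harvest. NEK2, a centrosome kinase, lay below 0 at both (-0.14 and -0.20), and its average difference did not pass the test (adjusted p = 0.087). The median absolute log2 difference was 0.13 for the members against 0.20 for all genes at the initial harvest, and 0.10 against 0.19 at the final harvest. Only 9715 of the 18289 genes tested were at 10 CPM or more, as most members were. A median for those genes alone was not computed, so the members were not set against genes of like level.

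**Figure D1:**
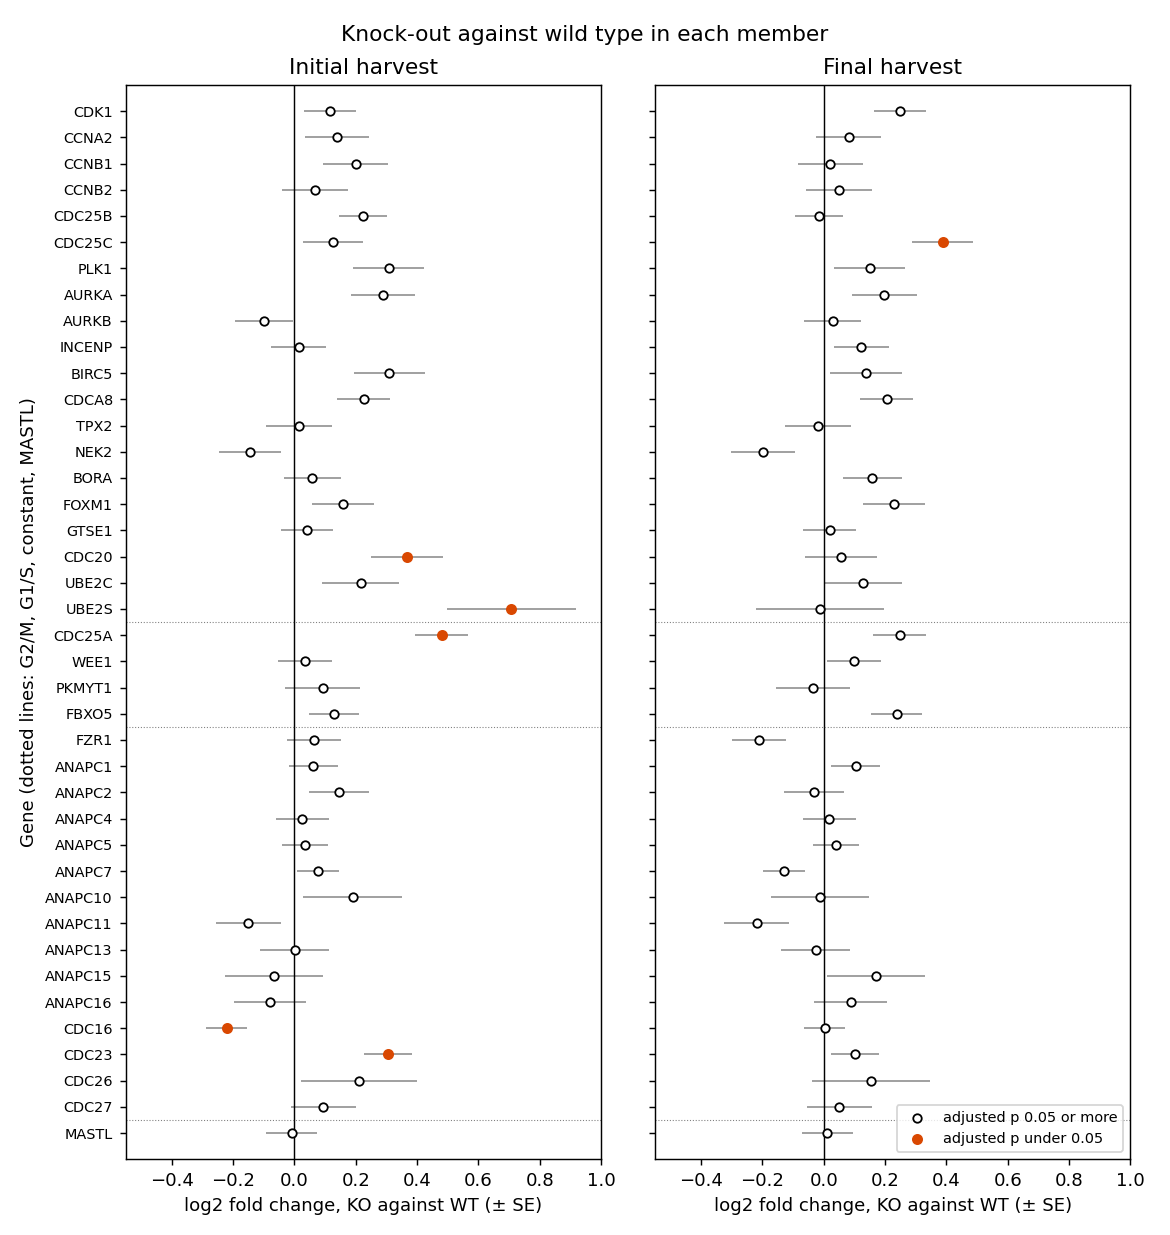
The log2 fold change of the knock-out against the wild type (horizontal axis, bars ± SE) is drawn for each of the 40 members at the initial (left) and final (right) harvest. Filled points passed an adjusted p of 0.05 in edgeR's quasi-likelihood test, which 5 members did at the initial and 1 did at the final harvest.

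In WT initial, KO initial and KO final, the replicates did not vary independently from gene to gene. In WT initial, replicate 2 had the highest level of its group in 20 of 20 G2/M-periodic genes and replicate 1 the lowest in 17 of 20. Over all genes of at least 10 CPM, WT initial replicate 2 was the highest in 45.4% and replicate 1 the lowest in 45.1%. In KO final, replicate 2 was the lowest in 18 of 20 G2/M-periodic genes, against 46.6% of genes of at least 10 CPM. Replicate 3 of KO final was the highest in 16, against 39.1%. KO initial replicate 2 was the highest in 15 of 20, against 33.3%, and replicate 1 the lowest in 15 of 20, against 48.2%. WT initial and KO initial thus mostly shared the order of replicates 1 and 2. WT final had no such common order: replicates 1, 2 and 3 were the highest in 10, 4 and 6 of 20 genes and the lowest in 8, 10 and 2. The 15 constant genes followed this order less closely, with WT initial replicate 2 the highest in 10 of 15 and KO final replicate 2 the lowest in 9 of 15.

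As a median over the 20 G2/M-periodic genes, relative to the mean of WT initial, the WT initial libraries stood at -0.13, 0.21 and -0.06 (log2, replicates 1 to 3) and the WT final libraries at -0.13, -0.10 and -0.08. The KO initial libraries stood at 0.09, 0.23 and 0.18, and the KO final libraries at 0.07, -0.12 and 0.10. The genotypes thus overlapped at both harvests, WT initial replicate 2 lying among the knock-out libraries and KO final replicate 2 among the wild-type ones. As a median, the proliferation genes (MKI67, TOP2A, PCNA and 6 MCM genes) put the same libraries at the ends of their groups. Their medians were 0.18 in WT initial replicate 2 and -0.09 in KO final replicate 2. PCNA and the 6 MCM genes each had this order, whereas MKI67 and TOP2A did not. MKI67 was at 959, 976.7 and 977.2 CPM in WT initial and 905.7, 925.3 and 934 in KO final. TOP2A was at 369.5, 342.8 and 350 CPM in WT initial and 398, 378.6 and 371.3 in KO final. The part of cycling state in the members' differences was not tested. The median SD of log2 level in WT initial was 0.19 for G2/M-periodic genes, 0.09 for constant genes and 0.13 for all genes of at least 10 CPM, and in KO final it was 0.13, 0.10 and 0.12. In WT final (0.09, 0.09 and 0.10) and KO initial (0.07 for each) the G2/M-periodic genes did not spread more than the others.

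**Figure D2:**
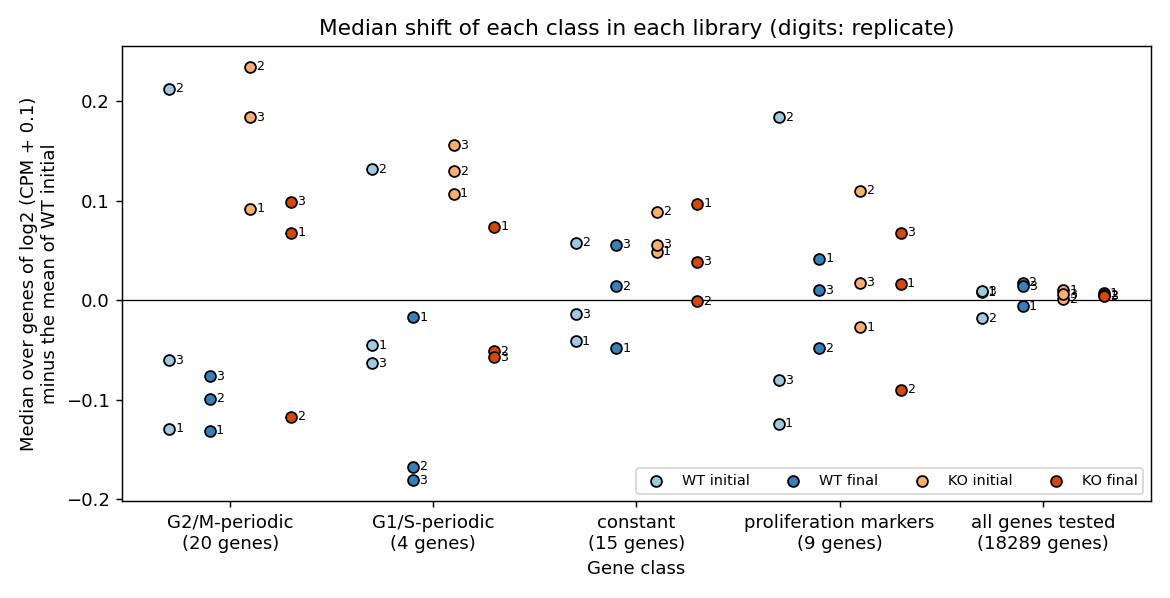
Each point is the median over a class of genes of log2 (CPM + 0.1) minus the mean of WT initial, for 1 library, with its replicate number beside it. Among G2/M-periodic genes WT initial replicate 2 (0.21) and KO final replicate 2 (-0.12) lie apart from their groups, whereas the median over all genes tested stays near 0 in every library.

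**Figure D3:**
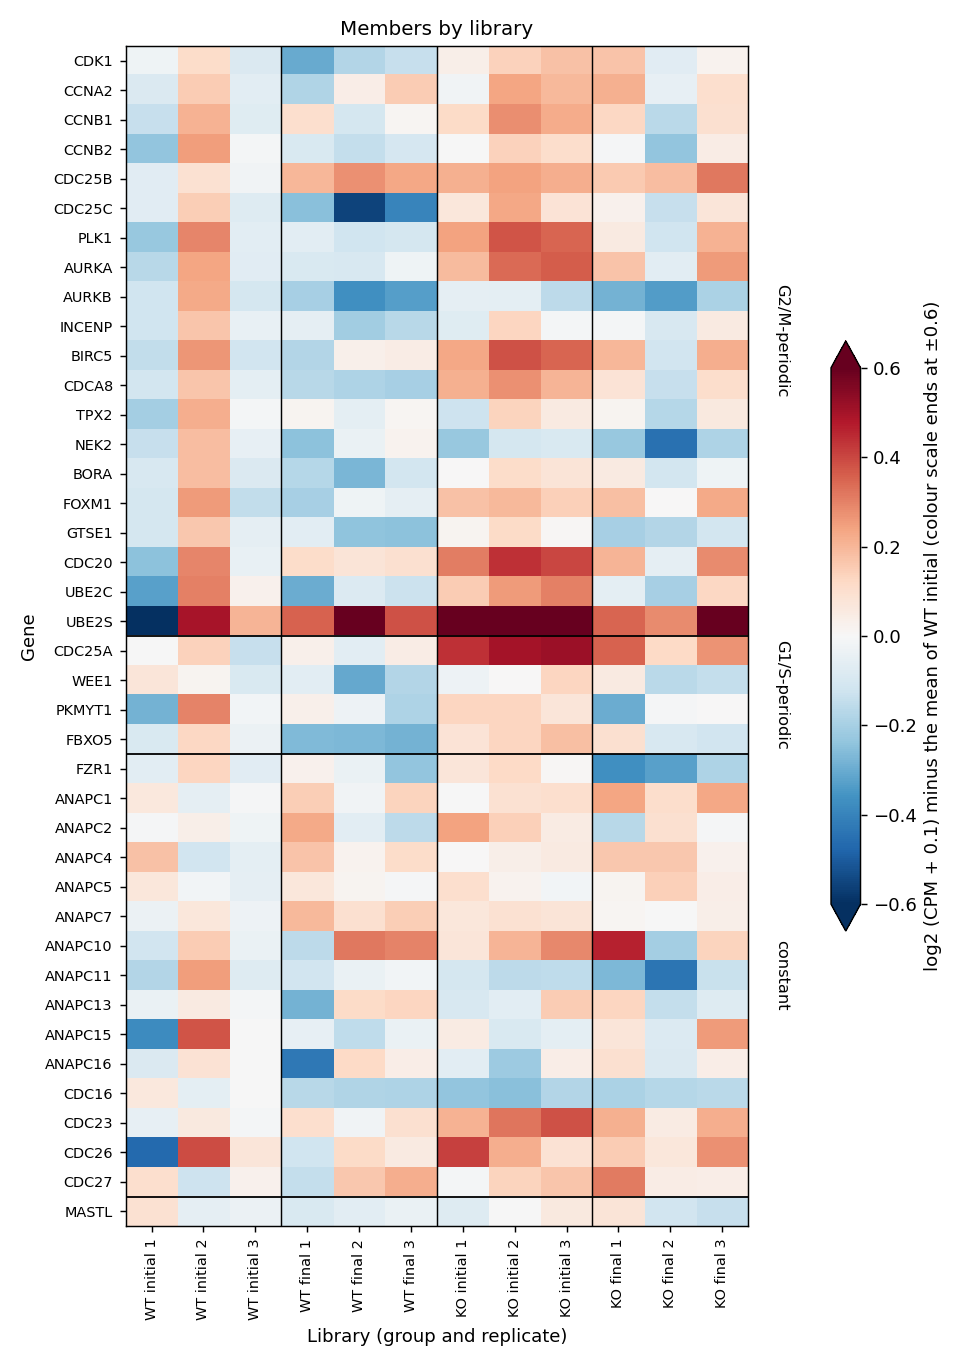
Rows are the 40 members by class and columns the 12 libraries; colour is log2 (CPM + 0.1) minus the gene's mean in WT initial, with the scale ending at ±0.6. Within WT initial the G2/M-periodic rows are all reddest in replicate 2. In WT final they go different ways, UBE2S and CDC25B lying above 0 and CDC25C and AURKB below. CDC25A is redder in all 6 knock-out libraries than CDC16 or FZR1.

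The number of members called moved with single libraries. Without WT initial replicate 2, 13 members were called at the initial harvest, 12 of them higher, when 24.6% of all genes were called. The initial count was 3 without WT initial replicate 1, WT final replicate 2 or WT final replicate 3, 2 without WT initial replicate 3, KO initial replicate 1 or KO initial replicate 2, and 1 without KO initial replicate 3. The share of all genes called was lower too in these 7 fits, at 12.9% to 18.1%. The final count was 5 without WT initial replicate 2, 3 without KO final replicate 2, and 0 without WT final replicate 2, KO final replicate 1 or KO final replicate 3. The shares of all genes were 20.8% and 14.6% in the first 2 of these fits and 13.7%, 14.3% and 15.5% in the last 3. The average count was 4 without WT initial replicate 3, WT final replicate 2, KO initial replicate 2 or KO initial replicate 3, and 5 without KO final replicate 1. In these fits of the average, every member called was higher in the knock-out, and 24.9% to 26.7% of all genes were called.

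The sequence upstream of the genes was compared between the classes. The cell cycle genes homology region (CHR) is the element through which MuvB complexes act, CCAAT boxes are bound by NF-Y, and E2F sites serve G1/S genes. RefSeq promoter entries (GRCh38.p14) were found for 33 of 40 members, and the 250 bases before each start were searched on both strands for the CHR as TTTGAA or TTCGAA, for CCAAT, and for E2F as TTTCGCGC or TTTGGCGC. A CHR and a CCAAT in the same entry were found for 10 of the 15 G2/M-periodic genes that had one, and for 0 of 15 constant genes. Counted by entry, the pair was in 47.8% of 23 G2/M-periodic entries, in 0 of 27 constant entries and in 5.1% of all 35116 promoters. A CHR, with or without a CCAAT, was in 14.3% of all promoters, a CCAAT in 32% and an E2F match in 1%. A match describes letters and does not show that a factor binds. Other spellings of these elements were not searched, so a gene without a match may still hold one.
Stretches of 120 bases that end 0 to 20 bases before the RefSeq start are shown for 6 members with called differences or a core role, on the strand of the gene, with matches in capitals. CDC20 (chr1:43358861-43358980, plus strand) and CCNB2 (chr15:59105006-59105125, plus strand) hold a CHR match with separate CCAAT boxes. CCNB1 (chr5:69167015-69167134, plus strand) holds CCAAT boxes without TTTGAA or TTCGAA, the only CHR letters searched.
CDC20: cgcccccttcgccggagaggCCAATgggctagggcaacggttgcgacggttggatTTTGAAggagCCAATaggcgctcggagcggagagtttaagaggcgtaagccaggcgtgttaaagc
CCNB2: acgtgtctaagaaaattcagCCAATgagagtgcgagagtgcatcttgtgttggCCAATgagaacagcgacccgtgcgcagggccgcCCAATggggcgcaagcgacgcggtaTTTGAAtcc
CCNB1: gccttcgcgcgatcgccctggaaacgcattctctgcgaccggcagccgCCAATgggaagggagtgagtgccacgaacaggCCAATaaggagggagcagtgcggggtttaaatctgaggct
CDC25A (chr3:48188418-48188537, minus strand) carries the E2F letters beside CCAAT boxes on the reverse strand (ATTGG). CDC23 (chr5:138213344-138213463, minus strand) has CCAAT boxes only, and the printed stretch of CDC16 (chr13:114234767-114234886, plus strand) has no match.
CDC25A: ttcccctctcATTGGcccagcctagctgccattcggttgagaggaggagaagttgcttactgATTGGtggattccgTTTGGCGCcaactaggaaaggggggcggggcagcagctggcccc
CDC23: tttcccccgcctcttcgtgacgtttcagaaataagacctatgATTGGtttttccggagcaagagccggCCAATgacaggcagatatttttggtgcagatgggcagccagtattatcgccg
CDC16: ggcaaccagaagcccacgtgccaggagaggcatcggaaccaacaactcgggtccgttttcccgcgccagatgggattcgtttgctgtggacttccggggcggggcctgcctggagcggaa

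Within the CDK1 switch, the clearest difference was in CDC25A, the phosphatase that activates CDK2 and CDK1 from G1/S onwards. CDC25A (ENSG00000164045.12, chromosome 3, 48157146 to 48188417, GRCh38, minus strand) was at 38.4, 42.3 and 34.9 CPM in WT initial, 39.2, 36.8 and 39.6 in WT final, 52.0, 54.4 and 54.9 in KO initial, and 49.2, 41.8 and 46.3 in KO final. All knock-out libraries lay above all wild-type libraries of the same harvest, and KO final replicate 2 alone fell inside the range of WT initial. CDC25A was 39.5% higher in the initial knock-out libraries (log2 0.48, SE 0.09, adjusted p = 0.000863 in edgeR's quasi-likelihood test), and this call held in 18 of 18 alternative fits. At the final harvest its difference was 0.25 and did not pass (adjusted p = 0.0602), and the average was 0.36 (adjusted p = 0.000261), called in 17 of 17 alternatives. The change of the difference between harvests, -0.23, did not pass the interaction test.

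CDC25C, the mitotic CDC25 phosphatase, was called at the final harvest. CDC25C (ENSG00000158402.21, chromosome 5, 138285269 to 138338355, minus strand) stood at 26.6, 31.0 and 26.4 CPM in WT initial, 23.4, 18.9 and 21.2 in WT final, 29.3, 32.8 and 29.6 in KO initial, and 28.4, 25.4 and 29.4 in KO final. The WT final libraries were the lowest of the 12 and overlapped with no other group. The knock-out was 30.9% higher at the final harvest (log2 0.39, SE 0.10, adjusted p = 0.0118 in edgeR's quasi-likelihood test). That call was lost without WT final replicate 2, KO final replicate 1 or KO final replicate 3, with adjusted p from 0.00344 to 0.0905 over the alternatives. The average difference of CDC25C, 0.26 (adjusted p = 0.0109), was called in 17 of 17 alternatives. Its initial difference, 0.13, did not pass, and neither did the interaction, 0.26. The reads of CDC25C cannot be told apart by strand from those of FAM53C, which overlaps it on the other strand. FAM53C differed between genotypes by 0.10 initially and -0.19 finally, and neither passed.

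CDC25B, the third of these phosphatases, was measured at 309 to 345 CPM in WT initial and 376 to 383 in KO initial without overlap, but its difference of 0.22 missed the threshold (adjusted p = 0.0562), and at the final harvest it was -0.02. Per length, CDC25C was at 0.101 ± 0.004 (SD, n = 3) of CDC25B in WT initial and 0.065 ± 0.009 in WT final, and at 0.095 ± 0.005 and 0.086 ± 0.006 in KO initial and KO final. WEE1, the kinase that opposes the CDC25 enzymes, differed by 0.03 and 0.10 (adjusted p = 0.831 and 0.502), and PKMYT1 by 0.09 and -0.04. The ratio of CDC25A to WEE1 per length ran from 1.04 to 1.30 in the 6 wild-type libraries and from 1.33 to 1.55 in the 6 knock-out libraries. The ratios were chosen with the members' values known, 9 were computed, and none was tested. Only CDC25A to WEE1 and AURKA to TPX2 separated all libraries of the genotypes, and in the other ratios the genotypes overlapped.

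CDK1 (ENSG00000170312.16, chromosome 10, 60778331 to 60794852, plus strand), the kinase at the centre of the module, was at 146, 160 and 140 CPM in WT initial, 120, 132 and 135 in WT final, 152, 163 and 168 in KO initial, and 167, 142 and 151 in KO final. The groups overlapped at the initial harvest and did not at the final harvest. Neither single-harvest difference passed (0.12 with SE 0.09 and adjusted p = 0.388, and 0.25 with SE 0.09 and adjusted p = 0.0543), while the average of 0.18 (SE 0.06) did, at adjusted p = 0.0319 in edgeR's quasi-likelihood test. That average was called in 8 of 17 alternatives, with adjusted p from 0.0116 to 0.0992. It was lost without a filter on low counts and without WT initial replicate 1 or 3, WT final replicate 1 or 2, KO initial replicate 2 or 3, or KO final replicate 1 or 3.

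The cyclins that partner CDK1 did not pass in any comparison. CCNB1, cyclin B1, was at 255, 325 and 268 CPM in WT initial, 301, 261 and 283 in WT final, 305, 341 and 328 in KO initial, and 307, 251 and 300 in KO final. The groups overlapped at both harvests, and the differences were 0.20 (adjusted p = 0.206) and 0.02 (adjusted p = 0.919), each with an SE of 0.105. CCNA2, cyclin A2, was at 82.2, 97.0 and 83.6 CPM in WT initial, 77.0, 89.8 and 97.3 in WT final, 86.2, 103 and 99.9 in KO initial, and 101, 84.3 and 93.8 in KO final. Its groups overlapped at both harvests as well, and the differences of CCNA2 were 0.14 (SE 0.10, adjusted p = 0.399) and 0.08 (SE 0.105, adjusted p = 0.663) in edgeR's quasi-likelihood test. CCNB2, cyclin B2, ran from 78.4 to 110 CPM over all libraries and differed by 0.07 and 0.05.

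**Figure D4:**
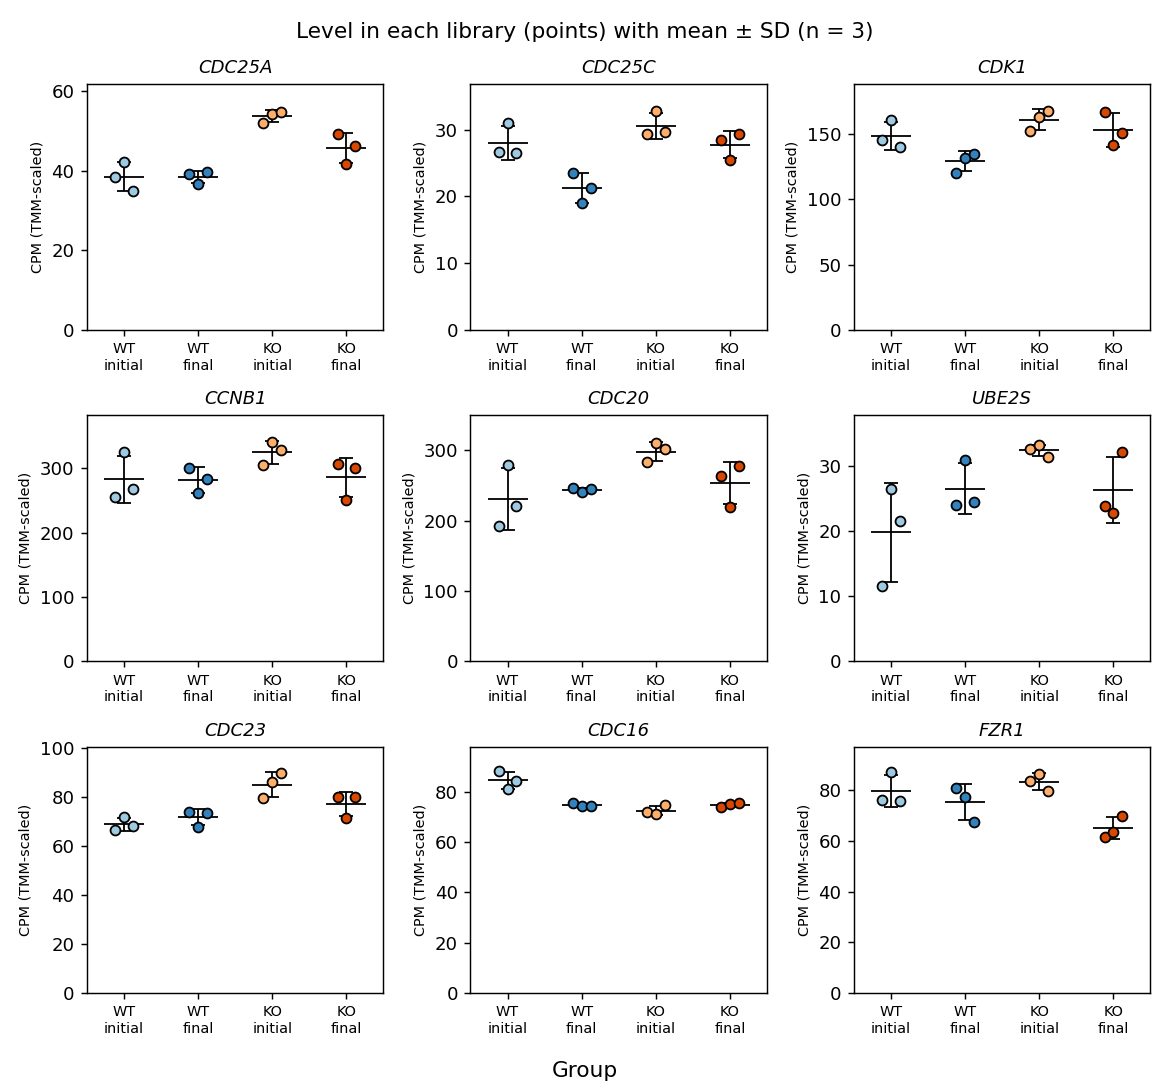
Levels in TMM-scaled CPM (vertical axes from 0) are shown for 9 members in the 4 groups, with each library as a point and the mean ± SD (n = 3) as bars. CDC25A lies higher in the knock-out at both harvests, WT final is the lowest group of CDC25C, and WT initial of UBE2S spreads from 11.5 to 26.4 CPM.

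PLK1, the kinase of centrosome maturation and cytokinesis, was at 133, 191 and 149 CPM in WT initial, 149, 144 and 145 in WT final, 185, 203 and 198 in KO initial, and 162, 143 and 180 in KO final. WT initial replicate 2 lay inside the range of KO initial, and KO final replicate 2 below all WT final libraries. Its differences of 0.31 and 0.15 did not pass (SE 0.12 for each, adjusted p = 0.0712 and 0.422), and the average of 0.23 did (SE 0.08, adjusted p = 0.0427). Only 7 of 17 alternatives kept the PLK1 average, with adjusted p from 0.00148 to 0.125: it was lost in 10 of the 12 fits that left out a library, all but those without WT initial replicate 2 or KO final replicate 2. The reads of PLK1 cannot be told apart by strand from those of ERN2, which overlaps it on the other strand and was itself higher in the knock-out (log2 0.76 and 0.83).

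AURKA, the spindle-pole Aurora kinase, was at 71.6, 94.8 and 76.7 CPM in WT initial, 75.5, 75.4 and 79.0 in WT final, 91.7, 102 and 104 in KO initial, and 90.5, 77.1 and 96.2 in KO final. The groups overlapped through WT initial replicate 2 and KO final replicate 2. The differences of 0.29 and 0.20 (SE 0.105 for each) did not pass (adjusted p = 0.0633 and 0.222). The average difference was 0.24 (SE 0.07, adjusted p = 0.0196), called in 12 of 17 alternatives and lost without WT initial replicate 3, WT final replicate 2, KO initial replicate 2 or 3, or KO final replicate 3. Its adjusted p ran from 0.00139 to 0.0631 over them.

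TPX2, the spindle factor that activates Aurora A, did not share this difference: it ran from 333 to 445 CPM in WT initial and from 351 to 420 in KO initial, with differences of 0.02 and -0.02. The ratio of AURKA to TPX2 per length was 0.259 ± 0.009 (SD, n = 3) in WT initial, 0.248 ± 0.007 in WT final, 0.314 ± 0.013 in KO initial and 0.288 ± 0.009 in KO final. The 6 wild-type libraries lay between 0.240 and 0.265 and the 6 knock-out libraries between 0.279 and 0.322, without overlap, as a description with no test. BORA, which lets Aurora A activate PLK1, differed by 0.06 and 0.16, and MASTL, the Greatwall kinase that restrains the B55 phosphatase, by -0.01 and 0.01. None of the 3 was called.

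The chromosomal passenger complex corrects kinetochore attachment, and its members were unevenly placed. CDCA8, borealin, was at 93.8, 114 and 97.2 CPM in WT initial, 90.01, 89.0 and 88.2 in WT final, 117, 122 and 116 in KO initial, and 107, 92.0 and 109 in KO final. Its knock-out libraries lay above the wild-type ones at both harvests, by 0.23 and 0.20 (adjusted p = 0.08 and 0.12). The average of 0.22 (SE 0.06) passed at adjusted p = 0.0136 in edgeR's quasi-likelihood test and in 17 of 17 alternatives.

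BIRC5, survivin, had an average difference of 0.22 that passed narrowly (adjusted p = 0.0494). It was called in 7 of 17 alternatives, with adjusted p from 0.00416 to 0.132, and was lost in the same 10 leave-one-out fits as PLK1. AURKB, the kinase of the complex, was at 96.2, 122 and 97.1 CPM in WT initial, 91.2, 80.9 and 83.1 in WT final, 101, 100 and 93.8 in KO initial, and 85.9, 82.8 and 91.6 in KO final. The genotypes overlapped at both harvests and the differences were -0.10 and 0.03 (SE 0.09 for each, adjusted p = 0.516 and 0.874). INCENP, the scaffold, differed by 0.01 and 0.12 and was not called.

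Of the genes of transcription and timing, FBXO5 (EMI1, the inhibitor of the APC/C) was called in the average at 0.18 (SE 0.06, adjusted p = 0.0255), while its differences of 0.13 and 0.24 at the single harvests did not pass (adjusted p = 0.306 and 0.0575). FBXO5 overlaps ENSG00000227627 on the other strand, which differed by -0.04 initially (adjusted p = 0.94) and was higher by 1.05 finally (adjusted p = 0.0128), and their reads cannot be told apart by strand. It was called in 9 of 17 alternatives, with adjusted p from 0.00813 to 0.0858. The call was lost without a filter on low counts and without WT initial replicate 1 or 3, WT final replicate 2 or 3, KO initial replicate 2 or 3, or KO final replicate 1. FOXM1, the transcription factor of G2/M genes, lay at 0.20 in the average and just missed (adjusted p = 0.0501). GTSE1 differed by 0.04 and 0.02.

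CDC20, the coactivator that starts anaphase, was called at the initial harvest. CDC20 (ENSG00000117399.14, chromosome 1, 43358981 to 43363203, plus strand) was at 193, 280 and 221 CPM in WT initial, 247, 241 and 244 in WT final, 283, 310 and 302 in KO initial, and 263, 220 and 278 in KO final. The initial groups did not overlap (280 CPM the highest in WT initial and 283 the lowest in KO initial), and the final groups overlapped. CDC20 was 29% higher in KO initial than in WT initial (log2 0.37, SE 0.12, adjusted p = 0.0371 in edgeR's quasi-likelihood test) and differed by 0.06 at the final harvest (adjusted p = 0.797). The initial call held in 9 of 18 alternatives, with adjusted p from 0.00134 to 0.142. It was lost with only the groups compared and without WT initial replicate 1 or 3, WT final replicate 2 or 3, any KO initial replicate, or KO final replicate 1.

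FZR1 encodes CDH1, the coactivator of late mitosis and G1. FZR1 (ENSG00000105325.15, chromosome 19, 3506311 to 3538334, plus strand) was at 76.3, 87.2 and 75.9 CPM in WT initial, 81.1, 77.4 and 67.4 in WT final, 83.7, 86.5 and 79.9 in KO initial, and 61.7, 63.5 and 69.95 in KO final. KO final lay below KO initial without overlap and overlapped with WT final. The genotype differences were 0.06 and -0.21 (SE 0.09 for each, adjusted p = 0.669 and 0.113). Per length, the ratio of CDC20 to FZR1 was 9.28 ± 1.1 (SD, n = 3) in WT initial, 10.48 ± 1.03 in WT final, 11.5 ± 0.64 in KO initial and 12.6 ± 1.31 in KO final. The libraries of the genotypes overlapped, and this ratio was not tested.

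The E2 enzymes that work with the APC/C were UBE2C, which starts ubiquitin chains, and UBE2S, which lengthens them. UBE2S (ENSG00000108106.14, chromosome 19, 55399745 to 55407788, minus strand) was at 11.5, 26.4 and 21.6 CPM in WT initial, 24.0, 30.9 and 24.4 in WT final, 32.5, 33.1 and 31.4 in KO initial, and 23.9, 22.8 and 32.0 in KO final. WT initial replicate 1 was the lowest library, while KO initial lay above every library of the wild type. UBE2S was 63.3% higher in KO initial than in WT initial (log2 0.71, SE 0.21, adjusted p = 0.026 in edgeR's quasi-likelihood test) and differed by -0.01 at the final harvest. The size rested on WT initial replicate 1: without it the difference was 0.43 (adjusted p = 0.039), over alternatives from 0.43 to 0.97. The call held in 12 of 18 alternatives, with adjusted p from 0.00219 to 0.154. It was lost with DESeq2, with no filter on low counts, and without WT initial replicate 3 or any of the KO initial replicates. UBE2S overlaps RPL28 on the other strand, which differed by 0.03 and -0.01.

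UBE2C was at 69.1, 107 and 88.0 CPM in WT initial, 70.3, 81.7 and 79.1 in WT final, 96.2, 103 and 107 in KO initial, and 83.0, 75.4 and 94.2 in KO final. The groups overlapped at both harvests, and the differences of 0.22 and 0.13 did not pass (SE 0.13 for each, adjusted p = 0.26 and 0.554). UBE2C has 5 named processed copies in the table, whose summed counts were 2.5% of its own, and CDC20 has 1 with 2.34%, so reads shared with these copies are uncertain.

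The APC/C is assembled from a scaffold, a catalytic arm (ANAPC2 with the RING subunit ANAPC11) and an arch of TPR subunits (CDC27, CDC16, CDC23 and ANAPC7). The 14 subunit genes spanned a wide range per length of gene model, from a median of 26.6 RPKM for CDC27 and 20.3 for ANAPC2 to 1.74 for ANAPC15 and 1.70 for ANAPC10. That length is not the length of the transcript made, so the order depends on the annotation. In CPM, without length, CDC26 (1.54 to 2.90 over the 12 libraries) lay below ANAPC15 (3.96 to 6.75) and ANAPC10 (6.02 to 9.61). Neighbours in this order often overlapped: ANAPC2 ran from 17.9 to 23.8 RPKM and ANAPC5 from 18.5 to 21.2 over the 12 libraries. ANAPC4 (5.36 to 6.55 RPKM) was separate from all other subunits. Short and lowly counted subunits were measured with less precision, CDC26 resting on 63 to 116 counts a library.

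**Figure D5:**
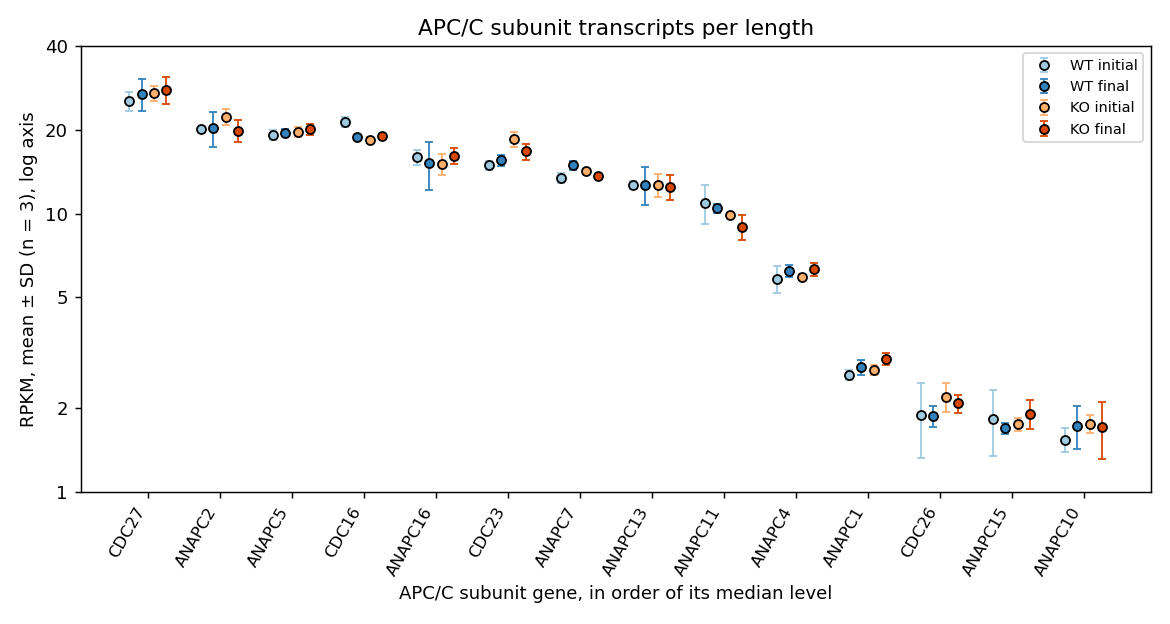
Level per length of gene model (RPKM, log axis, mean ± SD, n = 3) is plotted for the 14 APC/C subunits in order of their median. CDC27 leads at 26.6 RPKM, ANAPC10 is lowest at 1.70, and the 4 groups of each subunit lie close together compared with the differences between subunits.

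Only CDC23 and CDC16, both TPR subunits, were called among the 14 at the initial harvest, in opposite directions. CDC23 (ENSG00000094880.11, chromosome 5, 138187650 to 138213343, minus strand) was at 66.7, 71.8 and 68.4 CPM in WT initial, 73.9, 68.0 and 73.6 in WT final, 79.7, 86.1 and 89.9 in KO initial, and 80.0, 71.4 and 80.1 in KO final. The initial groups did not overlap, and KO final replicate 2 fell among the WT final libraries. CDC23 was 23.6% higher in KO initial than in WT initial (log2 0.30, SE 0.08, adjusted p = 0.0106 in edgeR's quasi-likelihood test), a call held in 17 of 18 alternatives and lost without KO initial replicate 3 (adjusted p = 0.0645, range from 0.00198). Its average of 0.20 (adjusted p = 0.0097) was called in 17 of 17, and its final difference was 0.10. KIF20A, which overlaps CDC23 on the other strand, differed by -0.07 and -0.06, and neither passed.

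CDC16 (ENSG00000130177.16, chromosome 13, 114234887 to 114272723, plus strand) was at 88.3, 81.3 and 84.3 CPM in WT initial, 75.5, 74.6 and 74.3 in WT final, 71.9, 71.2 and 74.8 in KO initial, and 74.1, 75.2 and 75.6 in KO final. WT initial alone lay above the other groups, which overlapped with each other. CDC16 was 0.22 lower (log2) in KO initial than in WT initial (SE 0.07, adjusted p = 0.0284 in edgeR's quasi-likelihood test) and differed by 0.00 at the final harvest. The call held in 9 of 18 alternatives, with adjusted p from 0.0035 to 0.173. It was lost with no filter on low counts, with only the groups compared, and without WT initial replicate 1 or 3, WT final replicate 2 or 3, or any KO initial replicate.

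The other 12 subunits were not called in either genotype comparison. Their differences ran from -0.15 (ANAPC11) to 0.21 (CDC26) at the initial and from -0.22 (ANAPC11) to 0.17 (ANAPC15) at the final harvest. ANAPC11, the RING subunit, was the lowest at both, with an average of -0.18 that did not pass (adjusted p = 0.0731). ANAPC2, its cullin partner, differed by 0.15 and -0.03, and CDC27 by 0.10 and 0.05. CDC25C and CDC23 lie within 500 kb of each other on chromosome 5, and of the 16 tested neighbours of CDC23 in that window 1 was called higher and 3 lower at the initial harvest.

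Over the 2 months of culture few members differed in either genotype. In the wild type 1 of 40 was called, CDC25C, which was lower at the final harvest (log2 -0.40, SE 0.10, adjusted p = 0.0233 in edgeR's quasi-likelihood test), against 6.47% of all genes (3.05% higher and 3.42% lower). Ranges did not overlap for 9 of 40, against 22.2%. The CDC25C call was lost with only the groups compared and without WT initial replicate 2, WT final replicate 2 or WT final replicate 3, with adjusted p from 0.00544 to 0.153. The wild-type count was 3 without WT initial replicate 1 (5.18% of all genes called) and 2 without WT final replicate 1 (7.44%). It was 0 without WT final replicate 2 (3.4%) or 3 (3.34%). The nearest members to the threshold were FBXO5 (-0.28, adjusted p = 0.0593) and AURKB (-0.31, adjusted p = 0.0647).

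In the knock-out 0 of 40 members were called by edgeR's quasi-likelihood test, against 1.48% of all genes (0.837% higher and 0.64% lower). Ranges did not overlap for 12 of 40, against 23.2%. Without adjustment 6 had p under 0.05, all of them lower at the final harvest. The share of all genes under that unadjusted p was not computed. DESeq2 called 1 of 40, against 4.18% of all genes. The member nearest the threshold was FZR1 at -0.36 (SE 0.09, adjusted p = 0.0553). FZR1 was called lower in 7 of 18 alternatives, with adjusted p from 0.00996 to 0.233. Those 7 were DESeq2, no filter on low counts, only the groups compared, and the fits without WT initial replicate 1, WT initial replicate 2, WT final replicate 1 or WT final replicate 3. All 20 G2/M-periodic genes lay below 0 in this comparison, with a median of -0.16, while the constant genes had a median of -0.03 and all genes 0.01. KO final replicate 2, which was the lowest of its group in 18 of these 20 genes, enters this median.

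The genotype difference was not shown to change between harvests for any member. The interaction of genotype and harvest called 0 of 40 by edgeR's quasi-likelihood test, against 1.28% of all genes (0.809% higher and 0.476% lower). DESeq2 called 0 of 40, against 3.13% of all genes. Without adjustment 5 had p under 0.05 in edgeR's test, a count for which no share of all genes was computed. The member with the smallest p in that test was UBE2S at -0.72 (SE 0.30, adjusted p = 0.322).

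Other genes of the same pathway were counted by lists of their own, beside 19.9% of all genes called at the initial harvest and 18.5% at the final harvest. Of the 10 APC/C substrates 1 was called at each harvest, GMNN (geminin, the inhibitor of replication licensing), which was lower by 0.88 and 0.96 (log2, adjusted p = 1.84e-05 and 6.55e-06). GMNN was not alone in its region: 9 of its 10 tested neighbours within 500 kb were called lower at the initial and 8 of 10 at the final harvest. Of 14 G1 cyclins, CDKs, inhibitors and E2F genes tested, 3 were higher and 1 lower at the initial harvest, and 4 higher and 1 lower at the final harvest. CDKN1A, the p53-induced CDK inhibitor, was higher by 0.98 and 0.37, CDK6 by 0.64 and 1.42, and CCND1 by 0.34 and 0.52, and E2F3 was lower by 0.70 and 0.66. Both tested neighbours of E2F3 within 500 kb were lower too. Of the 9 tested neighbours of CCND1, 2 were called higher at the initial harvest and 4 at the final harvest, and none lower. Of 16 neighbours of CDKN1A, 1 was higher and 2 lower and then 0 and 1, and of 12 neighbours of CDK6, 0 were higher and 3 lower each time. Of 12 MuvB, DREAM and B-MYB genes 1 was lower at the initial harvest (TFDP2) and 3 at the final harvest (TFDP2, LIN9 and LIN37). None of the 9 proliferation genes or 5 SCF partners was called at either harvest, and among the 8 genes of the B55 arm 1 was higher at the initial and 1 lower at the final harvest.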

How the data were processed

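RNA-seq libraries (12, 3 in each of 4 groups) were deposited by the authors as raw counts per gene with a gene length, per the file headers. STAR, featureCounts of Subread and the build hg38 are named in the submitters' processing notes; their versions, the annotation release, the strandedness of counting and how multi-mapping reads were treated are not given in the sources used here, so reads of overlapping genes cannot be told apart by strand (26 of 40 members overlap another gene of the table). The table had 60648 genes, of which 60592 had a symbol, after 5 broken lines of 1 gene were left out. IDs with the same version in GENCODE 29 (37318) had identical positions on GRCh38.

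Counts were filtered with filterByExpr by group, scaled with TMM and modelled in R 4.3.3 (edgeR 4.0.16 with limma 3.58.1) by 1 robust quasi-likelihood model of all 12 libraries with a mean for each group. There were 6 comparisons, with Benjamini-Hochberg adjustment over 18289 genes and a threshold of 0.05. The biological coefficient of variation was 9.8%. RPKM used the deposited gene lengths. An exact test of 3 against 3 cannot go under p = 0.1, so none was run. The code was tested on simulated data.

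Members, classes, lists and tests were chosen with earlier results of these data known. Full statistics were given by rule for CDK1, CCNB1, CCNA2, PLK1, AURKA, AURKB, CDC20, FZR1 and UBE2C, for up to 4 raised and 4 lowered members of smallest adjusted p, under 0.05, in each genotype comparison, and for up to 2 raised and 2 lowered, under 0.05, in the others. Other members were described after their values had been seen. Alternatives were DESeq2 1.42.0, RLE and upper-quartile scaling, no filter, a replicate block, only the groups compared, each library left out, and MASTL counted as periodic. A fit without both WT initial replicate 2 and KO final replicate 2 was run once and dropped, because it chose libraries by the measured outcome.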

Additional observations from a re-analysis of the deposited data

How the results depend on the processing

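No member's call reversed under any alternative. Counts of members called are given with the share of all genes called in the same fits. The number of members called at the initial harvest was 5. It ran from 1 to 13 with each library left out (12.9% to 24.6% of all genes). It was 9 with upper-quartile scaling (19.8%) and 3 with only the groups compared (18.5%). At the final harvest it was 1 and ran from 0 to 5 with each library left out (13.7% to 20.8% of all genes). It was 4 with DESeq2 (19.3%) and 4 with upper-quartile scaling (18.5%). The average count was 9 and ran from 4 to 13 with each library left out (24.9% to 32.2% of all genes). It was 9 to 11 otherwise (14.8% with no filter and 29.6% to 30.7% in the rest). Over time in the wild type it was 1 and ran from 0 to 3 with each library left out (3.34% to 7.46% of all genes). It was 5 with DESeq2 (9.15%), 2 with upper-quartile scaling (6.16%), 2 with no filter (3.45%) and 0 with only the groups compared (3.32%). Over time in the knock-out it was 0 and ran from 0 to 1 with each library left out (0.502% to 2.47% of all genes). It was 1 with DESeq2 (4.18%), 1 with no filter (1.25%) and 1 with only the groups compared (4.16%). The interaction count was 0 throughout. Fits of only the groups compared were not run for the average and the interaction, which need all 4 groups. Upper-quartile scaling moved the median of all genes by 0.03 (log2) or less. Where a leave-one-out fit leaves 2 libraries in a group, fewer samples carry the test. Counting MASTL, which was never called in the 6 comparisons, as periodic changed no count of calls.

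Over all genes tested, replicate numbers did not clearly pair the libraries. Of 18 same-numbered pairs 6 had a correlation of deviations above 0.1 (median 0.0387, against -0.0213 for other pairs). Between WT initial and KO initial, replicates 1, 2 and 3 correlated at 0.22, 0.13 and -0.005. In the G2/M-periodic genes both groups mostly had replicate 2 the highest and replicate 1 the lowest. Whether the numbers pair libraries within a harvest was not tested. With the replicate block the counts were 5, 1, 10, 1, 0 and 0 in the order above, and the added call was UBE2S in the average (adjusted p = 0.0425 in edgeR's quasi-likelihood test).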
